A study of Mus musculus with 16 samples.

Results

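The transcripts of 9 chemokines were followed in the mouse mammary tumour line 4TO7, which was kept in DMEM with 10% serum. The members are Ccl2, Ccl7, Ccl5, Ccl20, Cxcl1, Cxcl5, Cxcl10, Cxcl12 and Cx3cl1, and every probe that carried one of these names, or an accession mapped to it, was taken. These were 13 of the 41174 probes and 9 of the 27670 genes on the array. A filter on dim probes kept 12 of the 13, so all 9 genes were among the 18992 genes tested. Total RNA (175 ng) was hybridised on 16 arrays with 2 colours against reference RNA that combined 11 lines of mouse cells, with 2 arrays a group. Cells overexpressing Cluster 1 of the miR-200 family were set against a Puro vector made for them, and cells overexpressing CDH1 (E-cadherin, an adhesion protein of epithelial cells) against a separate Puro vector. Cells overexpressing Cluster 2 were set against a Hygro vector, and cells overexpressing Clusters 1+2 against cells with both a Hygro and a Puro vector. All vectors were pMSCV retroviruses, so every control had also been infected, and an uninfected group was not analysed here. The series design calls the repeats biological replicates. Whether a repeat was a new infection or a new culture of the same infected cells was not given in the sources used here, so p-values here reflect the scatter of these arrays, which may be technical, and may not cover that of lines made anew.

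Chemokines are small secreted proteins that direct the migration of leukocytes through G protein-coupled receptors. The CC chemokines of the list draw mostly monocytes and T cells, and the CXC chemokines Cxcl1 and Cxcl5 draw neutrophils through Cxcr2. Cxcl10 is induced by interferon and acts on Cxcr3, Cxcl12 acts on Cxcr4 and Ackr3, and Cx3cl1 is made as a membrane protein that can be shed. In tumours, cancer cells and the stroma around them are both known sources. Many of these genes are induced through NF-kB, and Cxcl10 through interferon as well.

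The miR-200 family has 5 members that fall under 2 seeds, and the mature 3p strands are shown because they are what the miRNA groups were built to overexpress. As is well known, miR-200c and miR-141 lie together in one genomic cluster, and miR-429, miR-200a and miR-200b in another; the labels do not say which of these is Cluster 1. Sequences are from RefSeq (GRCm38.p6), 5′ to 3′, with the seed (bases 2 to 8) in capitals. The genes of miR-200a, miR-200b and miR-429 lie on chromosome 4 and those of miR-141 and miR-200c on chromosome 6, all on the minus strand.
miR-141-3p: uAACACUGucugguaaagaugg
miR-200a-3p: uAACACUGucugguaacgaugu
miR-200b-3p: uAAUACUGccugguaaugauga
miR-200c-3p: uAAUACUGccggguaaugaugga
miR-429-3p: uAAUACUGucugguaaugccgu

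Between 30.5% and 69% of probes were well above background in the sample channel of an array, and the scanner software had marked 335 to 1675 of the 45018 spots of an array as unreliable. These marked spots were removed. The median gap between repeats ranged over 0.0827 to 0.108 in log2 ratio. The sample carried Cy5 for Cluster 1, CDH1 and their Puro vectors, and Cy3 for Cluster 2, Clusters 1+2 and their vectors, 8 arrays each. Slide 3 held both CDH1 groups and slide 4 both Cluster 1 groups, while slides 1 and 2 each held 1 repeat of all Cy3 groups. Levels in the Cy5 and Cy3 sets are therefore not compared: dye, slide and group cannot be told apart. Cdh1 itself averaged a log2 level of 0.67 on the CDH1 arrays and 0.058 on the arrays of their Puro vector, where its probe was not well above background, a difference of 0.612 ± 0.126 (SE; limma adjusted p = 0.00569) against a dim control. Whether that probe reads the introduced cDNA was not given in the sources used here.

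Of 8 epithelial markers, 7 were well above background on both arrays of each of CDH1, Cluster 1, Cluster 2, Hygro vector and Puro vector for Cluster 1. The count was 8 for Clusters 1+2 and for Hygro and Puro vectors, and 2 (Krt8 and Krt18) for the Puro vector for CDH1, whose second array had the lowest share of bright probes. Of 9 fibroblast markers 6 to 8 passed in every group, so the cells carried transcripts of both kinds. Of 11 leukocyte markers with a probe, 2 to 11 passed, and Ptprc, the pan-leukocyte antigen CD45, passed in the Puro vector for Cluster 1 and in no other group. Of 6 endothelial markers 0 to 6 passed. In bulk RNA, fewer cells of a type and less RNA per cell cannot be told apart.

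**Figure D1:**
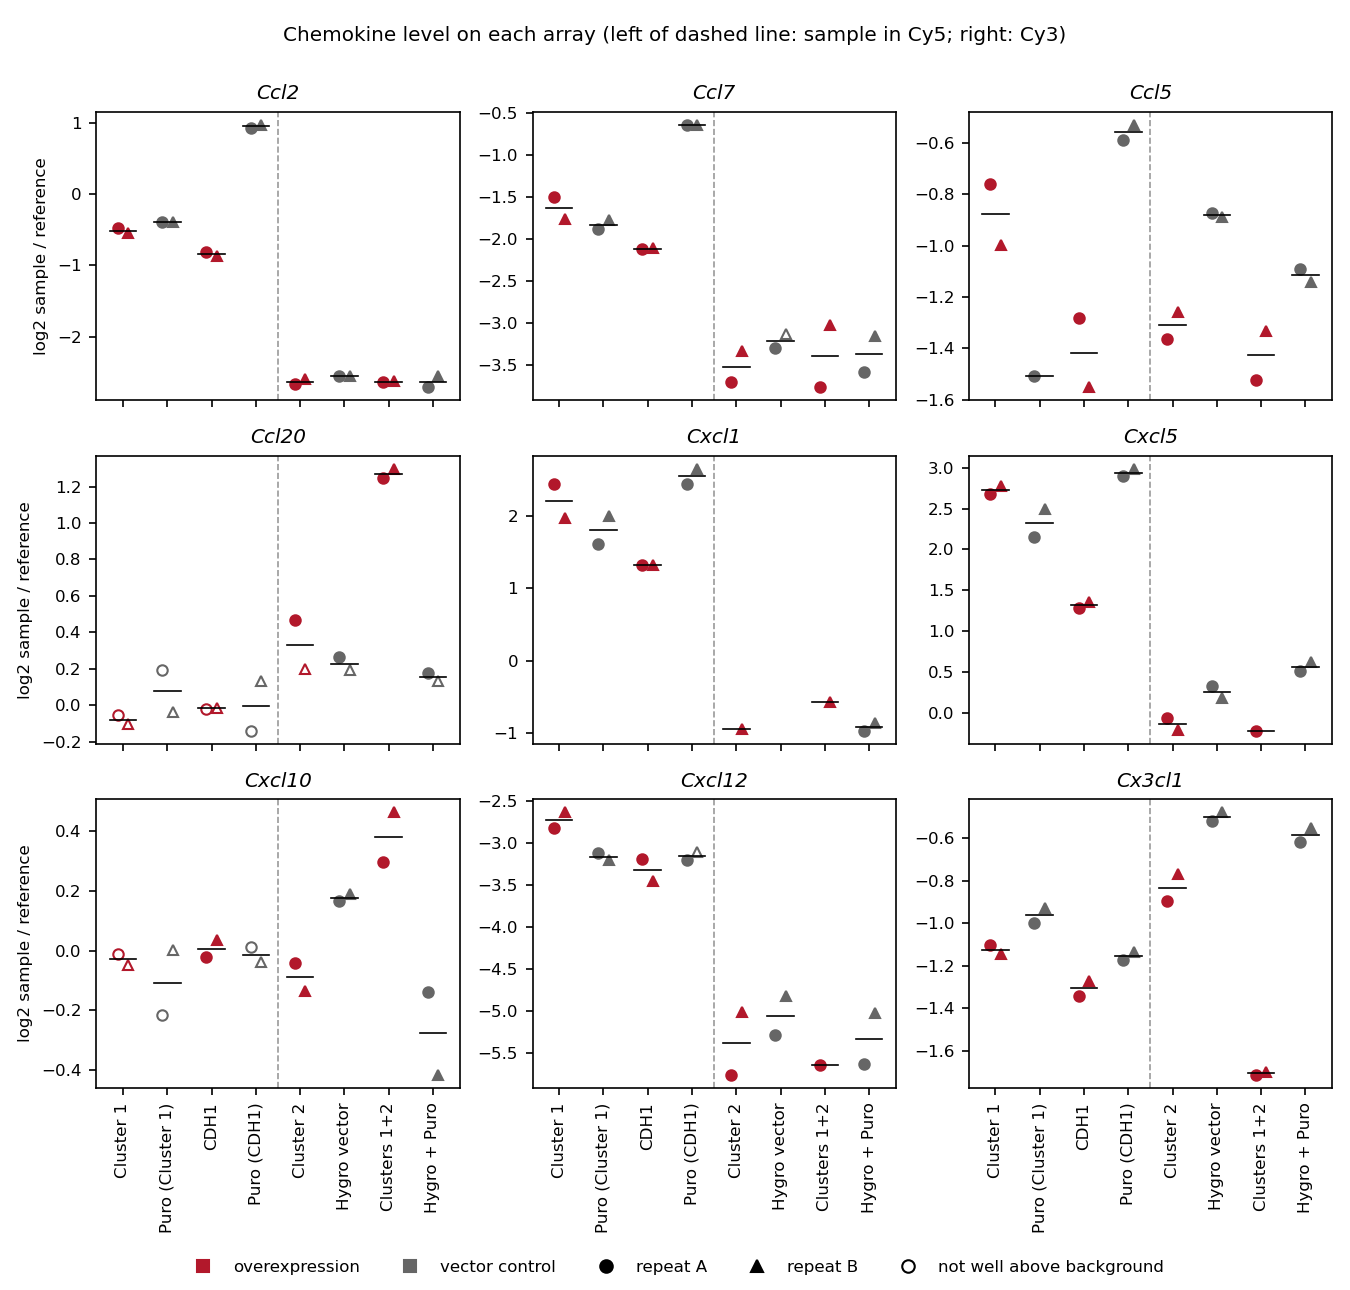
Each panel plots the log2 ratio of sample over reference of 1 chemokine on every array with a value (y axis) for the 8 groups (x axis, overexpression left of its vector). Circles are repeat A, triangles repeat B, bars group means, open symbols not well above background; CDH1 stands below its Puro vector for Ccl2 (-0.81 and -0.86 against 0.93 and 0.97), and Clusters 1+2 stand above their vectors for Ccl20 (1.24 and 1.30 against 0.18 and 0.13).

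The comparison of CDH1 held 5 member calls of 9, where 14.5% of all genes were called. Clusters 1+2 held 4 of 9 (24.8% of all genes), Cluster 1 held 2 of 9 (8.22%) and Cluster 2 held 1 of 8 (2.75%). Against their own Puro vector, CDH1 cells had lower transcript levels of 5 of the 9 chemokines tested, the monocyte attractants Ccl2 and Ccl7, the T cell and monocyte attractant Ccl5, and the neutrophil attractants Cxcl1 and Cxcl5, and none was higher. Across all 18983 genes tested 14.5% were called in this comparison, and 6.87% were called lower. The median log2 difference of the 9 members was -0.86, against 0.00506 for all genes tested. The Puro vector for CDH1 was itself unlike the other Puro vector in the same 5 genes.

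Ccl2, a ligand of Ccr2, was read by 1 probe (A_51_P286737; build mm7, chromosome 11, 82118723 to 82118782) that is spotted 10 times on the array. It had log2 levels of -0.81 and -0.86 on the CDH1 arrays, against 0.93 and 0.97 on the arrays of their Puro vector. The groups did not overlap, as was also so for 54.3% of all genes with 4 values in this comparison. The spots of 1 array spread by an SD of 0.0453 to 0.0693 on these 4 arrays. The fitted difference was -1.78 ± 0.0678 (SE), 3.44-fold lower, with a limma adjusted p of 1.03e-08. It stayed below the threshold in all 16 alternative settings, at -2.26 to -1.71.

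Ccl7, a neighbour of Ccl2 on chromosome 11 that acts on Ccr2 and other receptors, was read by 2 probes. The brighter one (A_51_P436652, mm7 chromosome 11, 82128729 to 82128788) gave log2 levels of -2.12 and -2.12 on the CDH1 arrays, against -0.65 and -0.65 on the Puro arrays. The difference was -1.47 ± 0.207 (SE), 2.77-fold lower, adjusted p = 0.000434 in limma. The other probe (A_52_P208763) gave -1.57 and -1.64 on the CDH1 arrays, against -0.19 and -0.24 on the Puro arrays. It was called too when every probe was tested alone (-1.39, limma adjusted p = 0.00136).

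Ccl5 was read by 2 probes on chromosome 11 (mm7, 83595699 to 83595758 for A_52_P638459, which stands for the gene, and 83595850 to 83595905 for A_51_P485312). The first gave log2 levels of -1.28 and -1.55 on the CDH1 arrays, against -0.59 and -0.53 on the Puro arrays. These did not overlap, as was also so for 54.3% of all genes with values on every array of this comparison. The difference was -0.86 ± 0.107 (SE), 1.81-fold lower, limma adjusted p = 0.000264. The second gave -0.86 as well, at a limma adjusted p of 0.000782 over all probes.

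Cxcl1 and Cxcl5, both ligands of Cxcr2, had 1 probe each on chromosome 5 (mm7, 90882059 to 90882118 for A_51_P363187 and 90732453 to 90732512 for A_52_P295432). Cxcl1 had log2 levels of 1.32 and 1.32 on the CDH1 arrays, against 2.45 and 2.66 on the Puro arrays, a difference of -1.23 ± 0.165 (SE; limma adjusted p = 0.000934). Cxcl5 had 1.28 and 1.36 on the CDH1 arrays, against 2.89 and 2.99 on the Puro arrays, a difference of -1.62 ± 0.109 (SE; 3.08-fold lower, limma adjusted p = 3.4e-06). For both genes every CDH1 array lay below every Puro array. Groups also did not overlap for 54.3% of all genes with values on every array of this comparison.

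The remaining members gave no call against this vector. Ccl20, a ligand of Ccr6 that draws dendritic and T helper cells, was not well above background on any of the 4 arrays, so no fold is given. Cxcl10 was well above background on both CDH1 arrays and on neither Puro array, and its log2 ratio differed by 0.021 ± 0.0993 (SE; limma adjusted p = 0.936). Cxcl12 had -3.19 and -3.45 in CDH1 cells, against -3.21 and -3.11 in Puro cells (limma adjusted p = 0.762), and Cx3cl1 -1.34 and -1.27 in CDH1 cells, against -1.17 and -1.14 in Puro cells (limma adjusted p = 0.171).

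How spots were removed bears on these calls. The removal of marked spots was chosen for these data after earlier results had been seen, and with marked spots kept 2 of the 5 calls remained, Ccl2 (-1.89, limma adjusted p = 4.36e-06) and Ccl5 (-0.96, limma adjusted p = 0.0101). Cxcl5 then stood at 1.28 and 1.34 on the CDH1 arrays, against 1.24 and 2.98 on the Puro arrays, so the first Puro array lay below both CDH1 arrays. The differences of Ccl7 (-1.67), Cxcl1 (-0.74) and Cxcl5 (-0.80) kept their sign there with limma adjusted p of 0.179, 0.225 and 0.47. Across all genes 6.53% were called in that setting, against 14.5% with marked spots removed. The 5 calls held without any single array and under the other settings run.

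**Figure D2:**
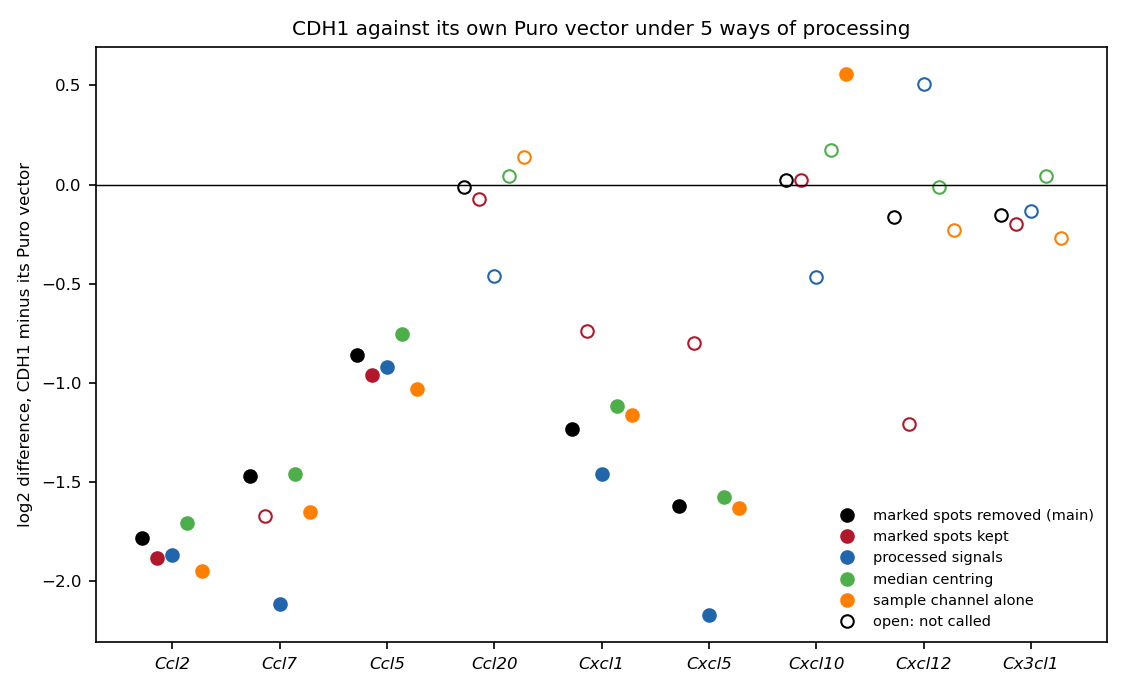
The y axis gives the log2 difference of CDH1 minus its Puro vector for the 9 chemokines (x axis) under 5 ways of processing; filled symbols were called by limma and open symbols were not. Ccl2 and Ccl5 are filled under all 5, while Ccl7, Cxcl1 and Cxcl5 are open with marked spots kept (-1.67, -0.74 and -0.80).

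The same CDH1 arrays were set against the other Puro vector, the one made for Cluster 1, to see whether the choice of control matters. CDH1 cells were then lower in 3 of the 9 chemokines, Ccl2, Cxcl5 and Cx3cl1, in a comparison where 2.41% of all genes were called and 1.15% were called lower. Ccl2 had -0.81 and -0.86 in CDH1 cells, against -0.39 and -0.39 in this Puro vector, a difference of -0.45 ± 0.0678 (SE; limma adjusted p = 0.00548). Cxcl5 had 1.28 and 1.36 in CDH1 cells, against 2.15 and 2.49, a difference of -1.002 ± 0.109 (SE; 2-fold lower, limma adjusted p = 0.000672). Cx3cl1 had -1.34 and -1.27 in CDH1 cells, against -0.999 and -0.93, a difference of -0.34 ± 0.067 (SE; limma adjusted p = 0.0202). Ccl7 (-0.29), Ccl5 (0.090) and Cxcl1 (-0.49) were not called against this vector, with limma adjusted p of 0.62, 0.865 and 0.197. The 2 groups lay on different slides here, so slide and group cannot be told apart. With marked spots kept none of the 9 was called by limma (adjusted p = 0.122 for Ccl2, 0.891 for Cxcl5 and 0.232 for Cx3cl1). In that setting 0.2% of all genes were called. Without the second CDH1 array 1 call was left, Cxcl5. The Cx3cl1 call ended in 10 of 15 settings and the Ccl2 call in 5 of 15. The Cxcl5 call held in 13 of 15 and ended with marked spots kept and in the sample channel alone.

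Set directly against each other, the Puro vectors differed in the 5 chemokines that were called in CDH1 cells against their own vector. Cells with the Puro vector for CDH1 were higher than cells with the Puro vector for Cluster 1 in Ccl2 (2.52-fold), Ccl7 (2.28-fold), Ccl5 (1.93-fold), Cxcl1 (1.68-fold) and Cxcl5 (1.54-fold), and in no member lower. In all, 10% of genes were called here and 5.18% were called higher. Ccl2 stood at 0.93 and 0.97 in the Puro vector for CDH1, against -0.39 and -0.39 in the Puro vector for Cluster 1 (1.34 ± 0.0678, SE; limma adjusted p = 2.51e-07). Ccl7 stood at -0.65 and -0.65 in the Puro vector for CDH1, against -1.89 and -1.78 in the other (1.19 ± 0.207, SE; limma adjusted p = 0.00276). These comparisons share the Puro arrays, so the values are not independent of those of CDH1 against its own vector. Slide and group cannot be told apart here either. With marked spots kept 2 of the 5 were called, Ccl2 and Ccl5, and 3 with the software's processed signals, Ccl2, Ccl5 and Ccl7. All genes were called at 2.77% and 12.4% in those settings. The Cxcl1 call also ended without the second array of the Puro vector for CDH1 and without the first array of the Puro vector for Cluster 1. Without that last array Ccl5 had no value in its group and could not be fitted. Of 6 endothelial markers 0 were well above background on both arrays of the Puro vector for CDH1 and 6 on both of the other, with a summed sample-channel level (log2) of 9.18 to 9.5 in the first and 9.9 to 10.1 in the other. Their log2 ratios gave 4 calls the other way, higher in the Puro vector for CDH1, and 0 with marked spots kept, so no direction is given for them. Of 11 leukocyte markers limma called 0 (1 at an unadjusted p under 0.05). Their part in the chemokine differences was not tested.

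**Figure D3:**
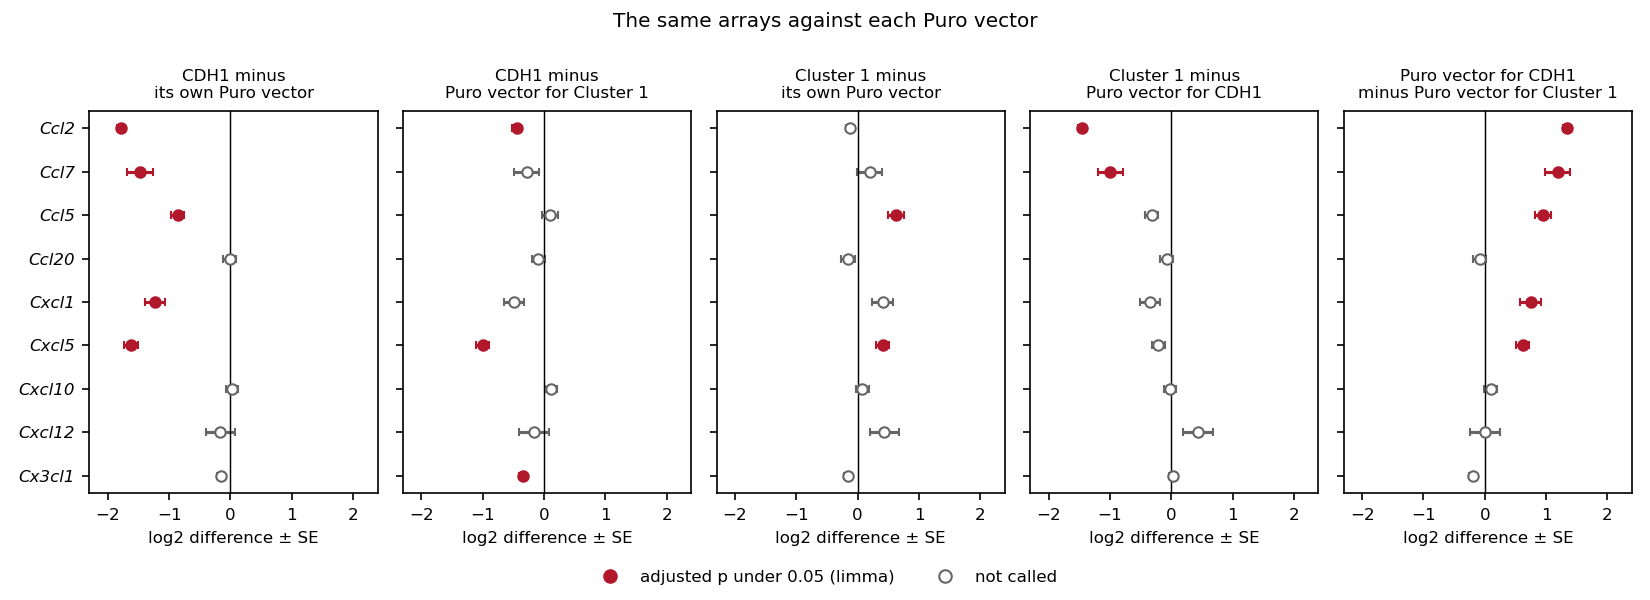
Each panel gives the log2 difference with its SE (x axis) of the 9 chemokines (y axis) for 1 pair of groups; filled symbols were called by limma. Ccl2 is at -1.78 for CDH1 against its own Puro vector, -0.45 against the Puro vector for Cluster 1, and 1.34 between the vectors.

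Cluster 1 cells were higher than their own Puro vector in 2 of the 9 chemokines, Ccl5 and Cxcl5, where 8.22% of all genes were called and 4.85% were called higher. Ccl5 had log2 levels of -0.76 and -0.996 in Cluster 1 cells, against -1.51 on the 1 array of the Puro vector with a value, the other spot having been marked. The difference was 0.63 ± 0.131 (SE; 1.55-fold higher, limma adjusted p = 0.0122), and the lone array is taken to vary like those of the other groups. The other Ccl5 probe had values on all 4 arrays, -0.62 and -0.74 in Cluster 1 cells, against -1.39 and -1.31 in the Puro vector, and a difference of 0.67 (limma adjusted p = 0.0075 over all probes). Cxcl5 had 2.68 and 2.78 in Cluster 1 cells, against 2.15 and 2.49 in the Puro vector, a difference of 0.41 ± 0.109 (SE) with a limma adjusted p of 0.0411. That is close to the threshold, and the call ended without either Cluster 1 array or without the first Puro array. The Ccl5 call ended without the first Cluster 1 array, and with marked spots kept neither gene was called. In that last setting 1.01% of all genes were called.

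Ccl2 was at -0.47 and -0.55 in Cluster 1 cells, against -0.39 and -0.39 in the Puro vector, a difference of -0.12 ± 0.0678 (SE; limma adjusted p = 0.372). The values of the groups did not overlap, as was also so for 51.3% of all genes with 4 values in this comparison. Cxcl1 was at 2.45 and 1.98 in Cluster 1 cells, against 1.61 and 2.01 in the Puro vector (limma adjusted p = 0.208), with overlap. Ccl7 (0.19 ± 0.207, SE), Cxcl12 (0.44 ± 0.242, SE) and Cx3cl1 (-0.16 ± 0.067, SE) were not called either, and Ccl20 and Cxcl10 were not well above background on any of the 4 arrays.

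Set against the other Puro vector, the one made for CDH1, Cluster 1 cells were lower in Ccl2 (-1.46 ± 0.0678, SE; limma adjusted p = 5.84e-08) and Ccl7 (-0.99 ± 0.207, SE; limma adjusted p = 0.00974), where 8.58% of genes were called and 3.82% were called lower. Slide and group cannot be told apart in this pair. Ccl5 then stood at -0.32 (limma adjusted p = 0.0979) and Cxcl5 at -0.21 (limma adjusted p = 0.329), neither called. The sign of Cxcl5 turned with an offset of 10 (0.143) and with processed signals (0.576, limma adjusted p = 0.00634). The Ccl7 call ended without the second Cluster 1 array, and without either array of that Puro vector.

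The effect of Cluster 1 and the effect of CDH1, each against its own vector on its own slide, differed in 5 of 9 chemokines. All 5 were higher for Cluster 1, where 17% of genes were called and 8.85% were called higher. The difference of effects was 1.66 ± 0.0959 for Ccl2, 1.67 ± 0.292 for Ccl7, 1.49 ± 0.169 for Ccl5, 1.64 ± 0.234 for Cxcl1 and 2.03 ± 0.154 for Cxcl5 (log2, SE), with limma adjusted p of 3.62e-07 to 0.00158. For Ccl2 and Ccl5 these held with marked spots kept. Since the level of each vector enters, a difference between the vectors enters too.

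Among the Cy3 arrays, Clusters 1+2 gave the largest changes of the members. Clusters 1+2 cells were higher in Ccl20 and Cxcl10 and lower in Cxcl5 and Cx3cl1 than cells with the Hygro and Puro vectors, so 4 of 9 members were called where 24.8% of all genes were. The median over the members was -0.0297, against 0.00392 for all genes.

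The promoters of the members that rose are shown, with that of Cxcl1, because Ccl20 and Cxcl10 were both higher. RefSeq (GRCm38.p6) promoters, from 250 bases before to 50 after the start of each gene, were given for 5 of the 9 members, and both strands were searched for a kB motif (GGGA, any 4 bases, then CC) and an interferon-stimulated response element (GAAA, any 2 bases, then GAAA). Matches are in capitals.
Ccl20, chr1:83116665-83116714, plus strand: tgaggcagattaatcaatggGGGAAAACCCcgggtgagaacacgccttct
Cxcl10, chr5:92348963-92349122, minus strand: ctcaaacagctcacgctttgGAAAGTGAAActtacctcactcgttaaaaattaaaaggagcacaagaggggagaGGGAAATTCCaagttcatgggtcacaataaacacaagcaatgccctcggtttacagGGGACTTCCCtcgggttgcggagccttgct
Cxcl1, chr5:90891135-90891204, plus strand: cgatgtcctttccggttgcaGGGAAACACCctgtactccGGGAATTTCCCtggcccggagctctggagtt

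The kB motif was found in 3 of the 5 member promoters and in 20.7% of the 32851 promoters of the table. The 3 are the promoters shown, which were picked for holding a match. It began 81 bases before the start in Ccl20, 159 and 103 bases before it in Cxcl10, and 90, 71 and 70 bases before it in Cxcl1, where the last pair overlap. The interferon motif was found in Cxcl10, beginning 213 bases before the start, and in 3.44% of all promoters. The promoters of Cxcl12 and Cx3cl1 held neither set of letters in this window. A match describes the letters and is not evidence of binding.

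Ccl20 (A_51_P408595, mm7 chromosome 1, 83327742 to 83327801) had log2 levels of 1.24 and 1.30 in Clusters 1+2 cells, against 0.18 and 0.13 in the Hygro and Puro vectors. The repeats lay close together and the groups far apart. The difference was 1.12 ± 0.108 (SE; 2.17-fold higher, limma adjusted p = 8.03e-06), 1.07 on slide 1 and 1.17 on slide 2. The probe was well above background on both Clusters 1+2 arrays and on 1 of the 2 vector arrays, so the fold rests on a dim control. In no other group did both arrays pass, so Ccl20 was kept by the filter on dim probes through Clusters 1+2 alone. The call held in all 16 alternative settings, at 0.84 to 3.13.

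Cxcl10 (A_51_P432641, mm7 chromosome 5, 92334002 to 92334061) had 0.30 and 0.46 in Clusters 1+2 cells, against -0.14 and -0.42 in the vectors. The difference was 0.66 ± 0.0993 (SE; 1.57-fold higher, limma adjusted p = 0.000329), 0.43 on slide 1 and 0.88 on slide 2. The probe was well above background on all 4 arrays, and the call was lost in 1 of 16 settings, with the processed signals (limma adjusted p = 0.343).

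Cx3cl1 (A_51_P196925, mm7 chromosome 8, 93371329 to 93371388), the ligand of Cx3cr1, had -1.71 and -1.70 in Clusters 1+2 cells, against -0.62 and -0.55 in the vectors. The difference was -1.12 ± 0.067 (SE; 2.17-fold lower, limma adjusted p = 1.15e-07), -1.09 on slide 1 and -1.14 on slide 2. It was called in all 16 settings. A second Cx3cl1 probe (A_51_P205129) was well above background on 1 of 16 arrays and was not tested.

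Cxcl5 had -0.22 on the 1 Clusters 1+2 array with a value, against 0.52 and 0.62 in the vectors. The difference was -0.79 ± 0.134 (SE; 1.73-fold lower, limma adjusted p = 0.001). That p takes the lone array to vary like those of the other groups, and with marked spots kept, when both arrays had values (-0.22 and -0.24), it was not called (limma adjusted p = 0.422). Ccl5 was at -1.53 and -1.33 in Clusters 1+2 cells, against -1.09 and -1.14 in the vectors, a difference of -0.31 ± 0.107 (SE; limma adjusted p = 0.054). Its other probe gave -0.47 and was called (limma adjusted p = 0.0162 over all probes), so the probes fell on either side of the threshold.

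Ccl2 was not called in this comparison, at -2.63 and -2.62 in Clusters 1+2 cells, against -2.70 and -2.55 in the vectors (0.00500 ± 0.0678, SE; limma adjusted p = 0.974). Ccl7 (-0.0300 ± 0.207, SE) and Cxcl12 (-0.31 ± 0.296, SE, 1 array against 2) were not called. Cxcl1 had -0.58 on the 1 Clusters 1+2 array with a value, against -0.98 and -0.86 in the vectors (limma adjusted p = 0.283).

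In Cluster 2 cells 1 of the 8 members with a test was called against the Hygro vector, Cx3cl1, lower, where 2.75% of genes were called and 1.04% were called lower. Cx3cl1 had -0.89 and -0.77 in Cluster 2 cells, against -0.52 and -0.48 in the Hygro vector, a difference of -0.33 ± 0.067 (SE; 1.26-fold lower, limma adjusted p = 0.0179). It was -0.37 on slide 1 and -0.29 on slide 2, and the call was lost in 9 of 16 settings, among them leaving out the second Hygro array or the first Cluster 2 array. Ccl5 had -1.36 and -1.26 in Cluster 2 cells, against -0.87 and -0.89 in the Hygro vector, a difference of -0.43 ± 0.107 (SE; limma adjusted p = 0.0601). Cxcl5 had -0.0600 and -0.21 in Cluster 2 cells, against 0.33 and 0.18 (limma adjusted p = 0.101), and Cxcl10 -0.0430 and -0.14, against 0.17 and 0.19 (limma adjusted p = 0.226). Cxcl1 had no value on either Hygro array and was not tested; with marked spots kept it stood at -0.85 and -0.91 in Cluster 2 cells, against -0.85 and -0.89 in the Hygro vector. Ccl2, Ccl7, Ccl20 and Cxcl12 had limma adjusted p of 0.544 or more.

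The effect of Clusters 1+2 was set against that of Cluster 2, both on slides 1 and 2. It differed in 3 of the 8 members tested where 6.22% of genes were called. The effect of Clusters 1+2 exceeded that of Cluster 2 by 1.01 ± 0.153 for Ccl20 and by 0.92 ± 0.14 for Cxcl10, and lay below it by -0.79 ± 0.0948 for Cx3cl1 (log2, SE; limma adjusted p = 0.00162, 0.00171 and 0.000313). Cxcl5 (-0.40, limma adjusted p = 0.224) did not pass. Ccl20 had been kept by the filter on dim probes through Clusters 1+2 alone. Of 20 alternative settings the Ccl20 call was lost in 4 and the Cxcl10 call in 3, both with an offset of 10, processed signals and the sample channel alone. The Cx3cl1 call was lost with marked spots kept and with scaled spread.

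**Figure D4:**
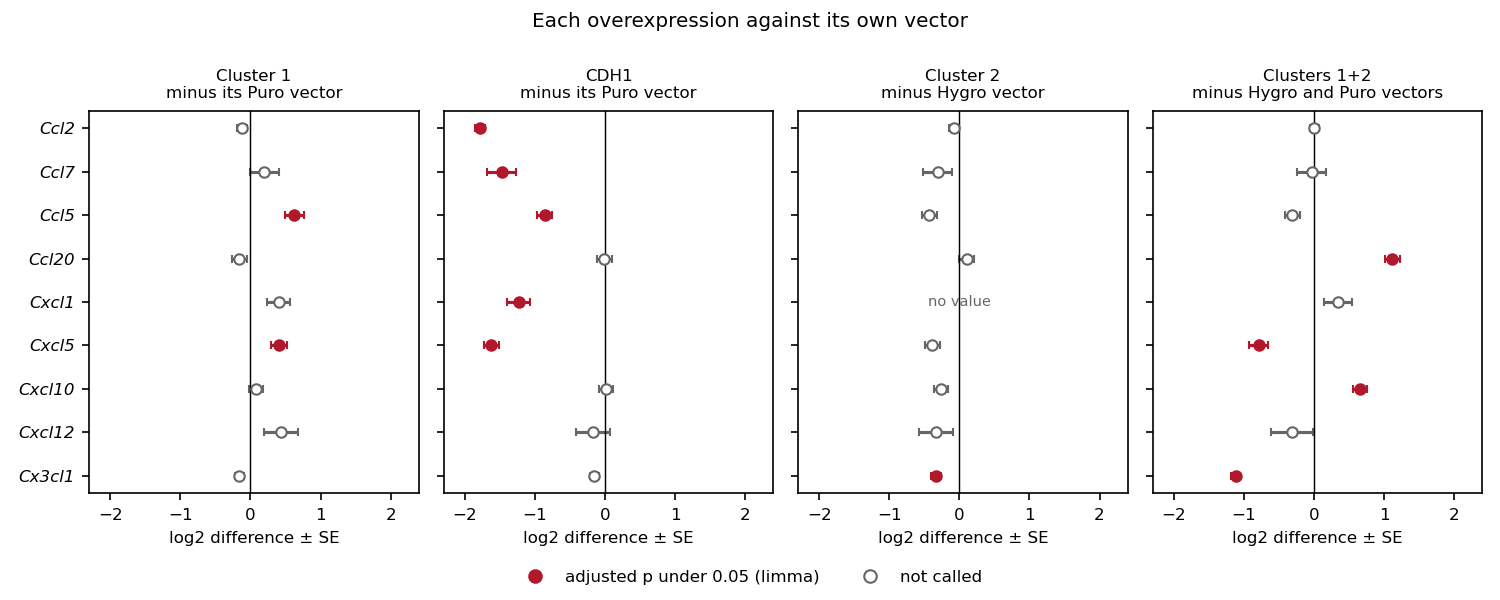
Each panel gives the log2 difference with its SE (x axis) of the 9 chemokines (y axis) for 1 overexpression minus its own vector; filled symbols were called by limma. The called members are 5 for CDH1 (14.5% of all genes called), 4 for Clusters 1+2 (24.8%), 2 for Cluster 1 (8.22%) and 1 for Cluster 2 (2.75%).

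Cxcl12, known for holding cells in bone marrow and for drawing Cxcr4-bearing tumour cells, was called in no comparison by its brighter probe (A_51_P172502, mm7 chromosome 6, 117207552 to 117207611). Its other probe (A_52_P685021, 117200799 to 117200858), designed on another transcript, gave -2.17 and -2.43 in CDH1 cells, against -1.20 and -1.17 in the Puro vector for Cluster 1. That was a difference of -1.11, called when every probe was tested alone (limma adjusted p = 0.0224). The same probe was not well above background on either array of Cluster 1 or of the Puro vector for CDH1.

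Other genes of the chemokine system were taken from lists. Of 29 further chemokines 19 had a probe that passed the filter. In CDH1 cells against their own vector 2 of the 19 were higher and 2 lower, where 14.5% of all genes were called. The median log2 difference of the 19 was -0.0568, against 0.00506 for all genes. Cxcl16, a membrane-bound chemokine shed by Adam10, was higher than the own vector in all 4 comparisons, by 1.31 ± 0.12 in Clusters 1+2, 1.00 ± 0.12 in Cluster 1, 0.83 ± 0.12 in Cluster 2 and 0.76 ± 0.12 in CDH1 (log2, SE; limma adjusted p of 5.23e-06, 0.000272, 0.00205 and 0.000994). Ccl9 was lower in CDH1 (-0.62 ± 0.111, SE; limma adjusted p = 0.0023) and higher in Cluster 1 (0.49 ± 0.111, SE; limma adjusted p = 0.0162). Cxcl3, a neutrophil attractant close to Cxcl1, was lower in CDH1 (-0.83 ± 0.185, SE; limma adjusted p = 0.00907), and Ccl25 higher (0.59 ± 0.0936, SE; limma adjusted p = 0.000956). Against the Puro vector for Cluster 1, 2 of the 19 were higher in CDH1 and 0 lower, where 2.41% of all genes were called. Neither Ccl9 nor Cxcl3 was thus called lower there. Between the Puro vectors 4 of the 19 were higher in that for CDH1 and 1 lower, where 10% of all genes were called. With marked spots kept, 1 of these 19 chemokines was called higher in CDH1 and 0 lower, and 0 were called in Cluster 1, in Cluster 2 and in Clusters 1+2, so the Cxcl16 calls of those 3 comparisons ended. All genes were then called at 6.53% in CDH1, 1.01% in Cluster 1, 0.405% in Cluster 2 and 13.9% in Clusters 1+2.

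Of 23 receptors 13 were tested. Ackr3, an atypical receptor that takes up Cxcl12, was lower in CDH1 (-1.55 ± 0.0801, SE; limma adjusted p = 1.7e-07), in Clusters 1+2 (-1.27 ± 0.0801, SE; limma adjusted p = 1.79e-07) and in Cluster 2 (-0.41 ± 0.0801, SE; limma adjusted p = 0.0151). Ackr3 was also 1.41 ± 0.0801 (SE) higher in the Puro vector for CDH1 than in the Puro vector for Cluster 1 (limma adjusted p = 6.75e-07). The 5 chemokines lower in CDH1 were higher in that vector too. Cxcr3, the receptor of Cxcl10, was lower in Clusters 1+2 (-0.84 ± 0.148, SE; limma adjusted p = 0.000993), and Ccrl2 higher in Cluster 1 (0.55 ± 0.141, SE; limma adjusted p = 0.0307). Of the 13 receptors limma called 0 with marked spots kept between the Puro vectors, in Cluster 2 and in Cluster 1, while 1 was lower in CDH1 and 1 lower in Clusters 1+2.

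Of 19 genes of the NF-kB pathway tested, 8 were higher and 4 lower in Clusters 1+2 (median 0.215, against 0.00392 for all genes), where 24.8% of all genes were called. In CDH1 3 were higher and 4 lower (median -0.0815, against 0.00506), where 14.5% were called. The counts with marked spots kept were 4 higher and 4 lower in Clusters 1+2, and 1 higher and 2 lower in CDH1. All genes were called at 13.9% and 6.53% there. In Clusters 1+2 the inhibitor Tnfaip3 (0.87 ± 0.103, SE; limma adjusted p = 6.78e-05) and the subunit Relb (0.64 ± 0.0685, SE; limma adjusted p = 1.89e-05) were higher, and Nfkbiz (-0.84 ± 0.0844, SE; limma adjusted p = 1.04e-05) and the receptor Tnfrsf1a (-0.62 ± 0.0571, SE; limma adjusted p = 5.09e-06) were lower. Bcl3, a coactivator of NF-kB, was lower in CDH1 (-0.86 ± 0.071, SE; limma adjusted p = 1.32e-05). Tnip1, an inhibitor, was higher in Cluster 1 (0.87 ± 0.0857, SE; limma adjusted p = 6.16e-05).

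Of 16 genes of interferon signalling tested, 9 were higher and 2 lower in Cluster 1 (median 0.348, against 0.00508 for all genes), and 1 was higher and 9 lower in CDH1 (median -0.416), where 8.22% and 14.5% of all genes were called. These counts changed with the vector. Against the Puro vector for Cluster 1, 0 were higher and 2 lower in CDH1 (median -0.0441), where 2.41% of all genes were called. Against the Puro vector for CDH1, 3 were higher and 4 lower in Cluster 1 (median 0.0535), where 8.58% were called. Between the vectors, 7 were higher and 1 lower in the Puro vector for CDH1, where 10% of all genes were called. The transcription factor Irf1 was higher in Cluster 1 (0.67 ± 0.0636, SE; limma adjusted p = 4.43e-05) and in Clusters 1+2 (0.51 ± 0.0636, SE; limma adjusted p = 6.64e-05), and lower in CDH1 (-0.53 ± 0.0636, SE; limma adjusted p = 0.000137). Irf1 was also 0.78 ± 0.0636 (SE) higher in the Puro vector for CDH1 than in the other Puro vector (limma adjusted p = 1.1e-05). The kinase Jak2 was higher in Cluster 1 (0.97 ± 0.0747, SE; limma adjusted p = 7.8e-06). The inhibitor Socs1 went the other way, lower in Cluster 1 (-0.69 ± 0.0764, SE; limma adjusted p = 0.00023) and higher in CDH1 (0.34 ± 0.0764, SE; limma adjusted p = 0.0112), while Socs3 was lower in all 4. With marked spots kept the interferon counts were 2 higher and 1 lower in Cluster 1, and 1 higher and 5 lower in CDH1. All genes were called at 1.01% and 6.53% there.

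Of 6 enzymes that process chemokines, 3 were lower in CDH1, the shedding protease Adam17 (-0.39 ± 0.0777, SE; limma adjusted p = 0.00498) and the matrix metalloproteinases Mmp2 (-0.46 ± 0.124, SE; limma adjusted p = 0.025) and Mmp9 (-0.53 ± 0.129, SE; limma adjusted p = 0.015). In that comparison 6.87% of all genes were called lower, and with marked spots kept limma called 0 of the 6. Against the Puro vector for Cluster 1 limma called 0 of the 6 in CDH1, with 3 at an unadjusted p under 0.05. The median was -0.0991 there, against -0.328 with the own vector. Between the Puro vectors 1 of the 6 was called, higher in that for CDH1, where 10% of all genes were called. In the other 3 own-vector comparisons limma called 0 of 6, with 2, 1 and 1 at an unadjusted p under 0.05 for Cluster 1, Cluster 2 and Clusters 1+2.

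Markers of other cell kinds were read in the same comparisons. Of 8 fibroblast markers tested 4 were lower in CDH1 than in its vector, where 6.87% of all genes were called lower. These were Pdgfra, Dcn, Lum and Thy1 (Pdgfra by -1.07 ± 0.0942, SE, limma adjusted p = 1.21e-05). The summed sample-channel level of the 8 was 12.3 to 12.4 in CDH1, against 12.8 to 12.9 in the Puro vector (log2). Of the 8, 1 was called lower with marked spots kept, and against the Puro vector for Cluster 1 also 1. Their part in the fall of the 5 chemokines was not tested. Of 11 leukocyte markers limma called 0 in each of the 4 own-vector comparisons, with 1 or 2 at an unadjusted p under 0.05, and their summed level was 10.4 to 10.5 in CDH1, against 10.8 on both arrays of the Puro vector. In Clusters 1+2 the leukocyte level was 9.9 to 10.2, against 9.89 to 10.1 in the vectors. Of 6 endothelial markers limma called 0 in each of the 4, with 0 to 2 at an unadjusted p under 0.05. Epithelial markers were higher in 8 of 8 for Clusters 1+2 (summed level 16.3 to 16.5, against 14.0 to 14.2 in the vectors), in 5 of 8 for Cluster 1 and in 5 of 8 for Cluster 2, and in CDH1 1 was higher (Cdh1) and 1 lower (Krt8). All genes were called at 24.8% in Clusters 1+2, 8.22% in Cluster 1, 2.75% in Cluster 2 and 14.5% in CDH1. Whether the epithelial markers bear on the chemokine values of those groups was not tested.

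The genes most like each called member were sought among 13188 or 13189 genes with values on all 16 arrays, by Pearson's r over the arrays of the 4 overexpression groups, each array minus the mean of its own vector. An overexpression array was left out where the member lacked a value on it or on an array of its vector, which left out Cluster 1 for Ccl5 and Cluster 2 for Cxcl1. Those arrays share slides, dyes and vector arrays, so r is a description. For Ccl2 (8 arrays) they were Sbsn (r = 0.995), Ifngr1 (0.994) and Enpp1 (0.993), and for Ccl7 (8 arrays) Podnl1 (0.991), Akip1 (0.984) and Pim1 (0.983). For Ccl5 (6 arrays) they were Ovol1 (0.998), Ankmy2 (0.993) and Dhx16 (0.993). For Cxcl1 (5 arrays) they were Tpd52l2 (0.999), Rab11a (0.999) and Txndc11 (0.999), and for Cxcl5 (7 arrays) Surf4 (0.995), Golph3 (0.993) and Slfn2 (0.993). For Cx3cl1 (8 arrays) they were Dpy19l1 (0.994), Cnpy2 (0.994) and the receptor Notch1 (0.993). Notch1 differed by -2.35 ± 0.0774 (log2, SE) in Clusters 1+2 against the vectors (limma adjusted p = 9.68e-10). For Ccl20 (8 arrays) they were Ube2j1 (0.99), Fbll1 (0.989) and the splicing regulator Esrp1 (0.988), and for Cxcl10 (8 arrays) Ngrn (0.981), Cpz (0.98) and Cysltr1 (0.979). These r rest on 5 to 8 points each, picked as the highest of all genes searched, and were not tested. Among the members themselves r was 0.909 for Ccl2 and Ccl7 and -0.989 for Ccl20 and Cx3cl1, over 8 arrays each.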

How the data were processed

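The deposited scanner files give the mean and background intensity of every spot in 2 channels, per the file headers from Agilent Feature Extraction 9.5.3.1 (array design 014868, probe positions of build mm7). The deposited log10 ratio of red over green, computed by that software after background subtraction and dye normalisation, equalled the series table's values within 8.06e-08 and served as an alternative (processed signals).

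Spots marked by the software were removed, a choice made after values had been seen in earlier work. Intensities were corrected with normexp (offset 50) and loess in limma 3.58.1 (R 4.3.3, with the data.table package, version 1.17.8), control spots having weight 0, and turned to log2 of sample over reference. Spots of a probe were averaged. Kept probes (27089 of 41174) had a sample channel that the software called well above background on each array of 1 group or more, and the brightest stood for its gene. One limma fit held all 8 groups, with Benjamini-Hochberg adjustment over all genes tested and a threshold of 0.05 for a call. The fit was tested on simulated data. Differences are overexpression minus vector. A gene with a missing spot was fitted on the arrays left, with none imputed.

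The members and lists were chosen with earlier results of these data known. Named were all members, from each other list up to 6 genes called in at least 1 of the 4 own-vector comparisons, and for each called member the 3 genes most like it. The number of arrays limits the precision.

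Alternatives were an offset of 10, marked spots kept, processed signals, median centring, scaled spread, the sample channel alone, no filter, the mean over probes, every probe alone, the compared groups alone, replicate and slide blocks, and leaving out each array.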

Additional observations from a re-analysis of the deposited data

Results flagged for a closer look

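The effects of 2 treatments, each against its own vector, differed by the limma test of the difference itself in 8 cases. The Cluster 1 effect exceeded the CDH1 effect by 1.66 for Ccl2, 1.49 for Ccl5, 1.67 for Ccl7, 1.64 for Cxcl1 and 2.03 for Cxcl5 (log2; limma adjusted p of 3.62e-07, 0.000103, 0.00158, 0.00107 and 6.11e-06). The 2 treatments lay on different slides, each with its own Puro vector, and the Puro vectors differed in the same 5 genes. The part of the vectors in these values was not tested. The Clusters 1+2 effect differed from the Cluster 2 effect by 1.01 for Ccl20, 0.92 for Cxcl10 and -0.79 for Cx3cl1 (limma adjusted p of 0.00162, 0.00171 and 0.000313), within the same pair of slides. Those of Ccl20 and Cxcl10 were lost in 4 and 3 of 20 alternative settings, and that of Cx3cl1 in 2. Ccl20 had been kept by the filter on dim probes through Clusters 1+2 alone, so its p-value is not free of that selection. Its probe was well above background on 1 of 2 arrays in each of Cluster 2, the Hygro vector and the Hygro and Puro vectors.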

How the results depend on the processing

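The calls in CDH1 against its own Puro vector and in Clusters 1+2 against their vectors kept within 1.5 times their count of 5 and 4 members under every setting run, except that keeping marked spots left 2 in CDH1. That setting also gave 0 of 9 in CDH1 against the Puro vector for Cluster 1, 0 in Cluster 1 against its own vector, 0 of 9 in Cluster 2, 1 in Cluster 1 against the Puro vector for CDH1, 2 between the Puro vectors and 2 in the Cluster 1 effect minus the CDH1 effect. Fewer genes of any kind were called with marked spots kept. The share of all genes was 6.53% in CDH1 against its own vector and 0.2% against the other Puro vector. It was 1.01% in Cluster 1 against its own vector, 1.77% against the Puro vector for CDH1 and 0.405% in Cluster 2. Between the Puro vectors it was 2.77%, and 6.08% for the difference of the Cluster 1 and CDH1 effects. CDH1 against the Puro vector for Cluster 1 had 1 call with median centring, 1 with scaled spread and 1 in the sample channel alone. In the sample channel alone its calls of Ccl2, Cxcl5 and Cx3cl1 were all lost. The 1 call there was of a member not called without that setting. Cluster 1 against the Puro vector for CDH1 had 5 in the sample channel alone, and Cluster 1 against its own vector 1 without the filter on dim probes. Cluster 2 had 0 with an offset of 10, processed signals, median centring, scaled spread, the sample channel alone or the compared groups alone, and 2 with the mean over probes or the slide as a block. The Clusters 1+2 effect minus the Cluster 2 effect had 1 with an offset of 10, processed signals, scaled spread or the sample channel alone, and the Puro vectors had 3 with processed signals. Leaving out 1 array gave 1 to 2 calls in CDH1 against the Puro vector for Cluster 1, 1 to 2 in Cluster 1 against the Puro vector for CDH1, 0 to 2 in Cluster 1 and 0 to 1 in Cluster 2 against their own vectors, and 3 to 5 between the Puro vectors. With the replicate block the counts were those of the fit without it in all 9 comparisons, 5 for CDH1 against its own vector. In the Cy3 groups the repeat letter is also the slide, and there the deviations of same-lettered repeats correlated at 0.276 for Cluster 2 and 0.333 for Clusters 1+2. In the Cy5 groups both repeats lay on 1 slide, and the correlations were -0.0141 for Cluster 1 and 0.013 for CDH1. The cause of these changes was not tested.

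Sign changes fell on differences not called without the alternative. Of these, 2 were called under it by limma, Cxcl5 with processed signals (0.576, adjusted p = 0.00634) and Cx3cl1 in the sample channel alone (-0.414, adjusted p = 0.0209), both in Cluster 1 against the Puro vector for CDH1. Without a change of sign, the log2 difference of Cxcl10, CDH1 against Puro vector for CDH1, was 0.557 in the sample channel alone and was called there (limma adjusted p = 0.0447). With median centring the difference changed sign to 0.042 for Ccl20 and 0.042 for Cx3cl1 in CDH1 against Puro vector for CDH1 and 0.025 for Ccl2 in Cluster 1 against Puro vector for Cluster 1. It also gave 0.035 for Ccl20 in Cluster 1 against Puro vector for CDH1 and -0.08 for Cxcl12 in Puro vector for CDH1 against Puro vector for Cluster 1. There it was 0.228 for Ccl2 and -0.091 for Ccl20 in Cluster 2 against Hygro vector and -0.006 for Ccl2 in Clusters 1+2 against Hygro and Puro vectors. The same setting gave -0.108 for Cxcl10 in the Cluster 1 effect minus the CDH1 effect and -0.235 for Ccl2, -0.202 for Ccl5 and -0.241 for Cxcl12 in the Clusters 1+2 effect minus the Cluster 2 effect. In the sample channel alone the difference changed sign to 0.141 for Ccl20 in CDH1 against Puro vector for CDH1 and 0.165 for Ccl20, 0.087 for Ccl7 and 0.432 for Cxcl1 in CDH1 against Puro vector for Cluster 1. It also gave 0.024 for Ccl2, 0.261 for Ccl20, -0.124 for Ccl7 and -0.077 for Cxcl10 in Cluster 1 against Puro vector for Cluster 1 and 0.237 for Ccl20 and -0.414 for Cx3cl1 in Cluster 1 against Puro vector for CDH1. There it was 0.024 for Ccl20 and 0.029 for Cx3cl1 in Puro vector for CDH1 against Puro vector for Cluster 1 and 0.005 for Ccl7 in Clusters 1+2 against Hygro and Puro vectors. The same setting gave 0.12 for Ccl20 and -0.634 for Cxcl10 in the Cluster 1 effect minus the CDH1 effect. With arrays scaled to the same spread the difference changed sign to 0.185 for Cxcl12 in CDH1 against Puro vector for CDH1 and -0.011 for Cx3cl1 in Cluster 1 against Puro vector for CDH1. It also gave -0.193 for Cxcl12 in Puro vector for CDH1 against Puro vector for Cluster 1 and 0.003 for Ccl2 in Cluster 2 against Hygro vector. There it was 0.108 for Ccl7 in Clusters 1+2 against Hygro and Puro vectors and -0.076 for Cxcl12 in the Clusters 1+2 effect minus the Cluster 2 effect. With the processed signals the difference changed sign to -0.467 for Cxcl10 and 0.509 for Cxcl12 in CDH1 against Puro vector for CDH1 and 0.072 for Ccl7 in CDH1 against Puro vector for Cluster 1. It also gave -0.535 for Ccl7 in Cluster 1 against Puro vector for Cluster 1 and -0.002 for Cx3cl1 and 0.576 for Cxcl5 in Cluster 1 against Puro vector for CDH1. There it was -0.593 for Cxcl12 in Puro vector for CDH1 against Puro vector for Cluster 1 and -0.021 for Ccl2 in Clusters 1+2 against Hygro and Puro vectors. The same setting gave 0.096 for Ccl20 in the Cluster 1 effect minus the CDH1 effect and -0.149 for Cxcl12 in the Clusters 1+2 effect minus the Cluster 2 effect. With marked spots kept the difference changed sign to -0.056 for Ccl5 in CDH1 against Puro vector for Cluster 1 and -0.159 for Cxcl12 in Cluster 1 against Puro vector for CDH1. It also gave 0.003 for Ccl7 and 0.021 for Cxcl12 in Clusters 1+2 against Hygro and Puro vectors and 0.117 for Cx3cl1 in the Cluster 1 effect minus the CDH1 effect. With the mean over probes the difference changed sign to -0.04 for Ccl5 in CDH1 against Puro vector for Cluster 1 and -0.271 for Cxcl12 in Puro vector for CDH1 against Puro vector for Cluster 1. It also gave 0.033 for Cxcl12 in Clusters 1+2 against Hygro and Puro vectors. With an offset of 10 the difference changed sign to -0.057 for Ccl7 in Cluster 1 against Puro vector for Cluster 1 and -0.009 for Cx3cl1 and 0.143 for Cxcl5 in Cluster 1 against Puro vector for CDH1. It also gave -0.153 for Cxcl12 in Puro vector for CDH1 against Puro vector for Cluster 1 and -0.076 for Cxcl12 in the Clusters 1+2 effect minus the Cluster 2 effect. Leaving out 1 array turned the sign of further differences. In CDH1 against Puro vector for CDH1 it ran over -0.148 to 0.125 for Ccl20 and -0.006 to 0.048 for Cxcl10. In CDH1 against Puro vector for Cluster 1 it ran over -0.21 to 0.022 for Ccl20 and -0.045 to 0.225 for Ccl5. In Cluster 1 against Puro vector for Cluster 1 it ran over -0.03 to 0.187 for Cxcl10. In Cluster 1 against Puro vector for CDH1 it ran over -0.211 to 0.062 for Ccl20 and -0.04 to 0.01 for Cxcl10. In Puro vector for CDH1 against Puro vector for Cluster 1 it ran over -0.219 to 0.054 for Ccl20, -0.015 to 0.202 for Cxcl10 and -0.045 to 0.05 for Cxcl12. In Cluster 2 against Hygro vector it ran over -0.031 to 0.239 for Ccl20 and -0.705 to 0.047 for Cxcl12. In Clusters 1+2 against Hygro and Puro vectors it ran over -0.07 to 0.081 for Ccl2 and -0.399 to 0.339 for Ccl7. In the Cluster 1 effect minus the CDH1 effect it ran over -0.045 to 0.028 for Cx3cl1 and -0.05 to 0.167 for Cxcl10. In the Clusters 1+2 effect minus the Cluster 2 effect it ran over -0.091 to 0.646 for Ccl7 and -0.36 to 0.392 for Cxcl12. The cause was not tested. With 2 arrays a group the number of arrays limits the precision, and dim probes (Ccl20 on the Cy5 arrays, Cxcl10 on 6 arrays) carry little signal over background.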
